A study of Mus musculus with 2 samples.

Results

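Kruppel-like factors (KLFs) are zinc finger transcription factors that bind GC-rich and CACCC sequences in promoters and enhancers. Their zinc fingers are alike, while the rest of the protein differs, so that some members activate and others repress. In T cells the family is best known for Klf2, which keeps cells quiescent and drives the genes that let them leave tissues and enter lymph nodes. The 10 genes Klf2, Klf3, Klf4, Klf6, Klf7, Klf9, Klf10, Klf11, Klf12 and Klf13 were chosen by symbol, and 9 of them were found among the 10219 genes of the deposited count table. Klf12, a repressor, has no row there and no value is given for it. The table's lowest mean of the 2 counts was 50.5, so genes below that level in these libraries are not represented.

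RNA was sequenced from sorted adipose regulatory T cells (Tregs) of C57BL/6 mice that were 4 months old. The control library came from Foxp3Cre mice and the knockout library from Hif1afl/fl;Foxp3Cre mice. Both genotypes carry the Cre recombinase expressed with Foxp3, the lineage factor of Tregs, and in the knockout it acts on floxed Hif1a, which encodes the oxygen-regulated subunit of HIF-1. Each genotype is represented by 1 library, so the differences below carry no error between animals and no test; the intervals cover counting error only. The number of mice behind each library and the sort gate are not stated in the labels. In bulk RNA a lower level cannot be told apart from a smaller share of the cells that express the gene.

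Totals over the listed genes were 11337415 (knockout) and 13472317 (control) counts. The targeted gene Hif1a had 8958 knockout and 16927 control counts and was 1.63-fold lower after scaling (95% counting interval 1.59 to 1.68), counted over the whole gene and not over the floxed part. The 12 pan T cell markers were all listed and all within 2-fold, with a median log2 ratio of 0.17. Of all listed genes 19.3% were past 2-fold in either direction. Foxp3 was 2.24-fold lower (2.02 to 2.48) in the knockout. Of 17 macrophage markers 6 were listed, all past 2-fold towards the knockout, against 10.9% of all listed genes. Their summed level was 3657 CPM in the knockout (counts per 1000000 scaled counts) against 245 CPM in the control. Adgre1, Csf1r, Cd14, Mrc1, C1qa, C1qb, C1qc, Cd163, Mertk, Itgam and Trem2 have no row. Lyz2, Pf4 and Fcgr1 had 35, 32 and 50 control counts, below the lowest mean of 50.5, so they are listed only through their knockout counts. The direction, sum and median of the 6 listed markers are thus those of a selected part of the list. The missing rows do not show which way the other 11 differed. Macrophages and monocytes also express Klf2, Klf4 and Klf6, and the part of such cells in the values of any KLF gene was not tested.

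Promoter sequences are shown for the genes on which the comparison turns: Klf2 and Klf3, the members with the largest differences towards the knockout library, and Klf6, the most abundant member. They are RefSeq windows of 300 bases on build GRCm38.p6, from 250 bases before to 50 bases after the annotated start, written 5′ to 3′ on the gene's strand. The Klf2 window is chr8:72318812-72319111 (plus strand), and its capitals mark the match to the MEF2 consensus, the site of the factors through which the ERK5 kinase pathway is known to activate Klf2. The Klf3 window is chr5:64803271-64803570 (plus strand), and its capitals mark the 5 CACCC boxes (CACCC or, on the other strand, GGGTG), the element that KLF proteins bind. The Klf6 window is chr13:5861239-5861538 (plus strand), and its capitals mark the HIF core ACGTG, read on both strands of a palindrome.
Klf2: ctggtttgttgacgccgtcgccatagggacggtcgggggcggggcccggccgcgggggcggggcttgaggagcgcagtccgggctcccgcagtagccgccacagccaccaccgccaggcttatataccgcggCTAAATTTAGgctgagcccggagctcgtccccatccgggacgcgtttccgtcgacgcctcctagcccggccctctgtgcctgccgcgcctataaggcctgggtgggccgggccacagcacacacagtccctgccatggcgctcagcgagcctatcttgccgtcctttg
Klf3: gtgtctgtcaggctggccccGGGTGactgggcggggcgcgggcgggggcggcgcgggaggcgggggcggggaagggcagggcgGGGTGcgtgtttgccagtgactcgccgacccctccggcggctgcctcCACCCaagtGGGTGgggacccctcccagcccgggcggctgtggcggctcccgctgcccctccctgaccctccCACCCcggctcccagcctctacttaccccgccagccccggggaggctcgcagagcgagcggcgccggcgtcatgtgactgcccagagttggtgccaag
Klf6: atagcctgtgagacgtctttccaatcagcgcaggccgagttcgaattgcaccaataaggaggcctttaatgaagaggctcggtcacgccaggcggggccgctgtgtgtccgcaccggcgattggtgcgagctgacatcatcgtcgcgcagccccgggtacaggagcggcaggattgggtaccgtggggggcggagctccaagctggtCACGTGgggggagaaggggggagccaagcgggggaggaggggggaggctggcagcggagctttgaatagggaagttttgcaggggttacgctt

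Of the 10 members 9 had an entry in the promoter table, the exception being Klf10; the 9 windows include that of Klf12, which has no row in the count table. The MEF2 consensus, searched on both strands, was found in the Klf2 window and in 0 other members' windows, at position -118 from the start; 3.19% of the 32851 promoter windows in the table held it. A CACCC box was found in 6 of the 9 windows, against 57.5% of all windows. The HIF core ACGTG was found in 4 of the 9, those of Klf4, Klf6, Klf9 and Klf11, against 19.6% of all windows. The variant core GCGTG was found in 6 of the 9, against 32.4%. The Sp and KLF element GGGCGG, called a GC box, was found in 7 of the 9, against 35.7% of all windows, with 6 matches in the Klf3 window. In that window a GC box and the GCGTG core each share a base with the CACCC box at position -167. The FOXO element TGTTTAC was found in the Klf9 window alone of the 9, against 3.65% of all windows. Neither HIF core was found in the Klf2 window. The windows of the whole table were not matched to those of the members for GC content, so the shares do not account for it. These matches describe letters in the windows and do not show binding.

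Comparison of the family between the libraries gave differences in both directions. Klf2 and Klf3 exceeded 2-fold towards the knockout library, Klf10 exceeded it towards the control, and the other 6 listed members were within 2-fold. Of all listed genes 10.9% passed 2-fold towards the knockout and 8.41% towards the control, so 3 of 9 members past 2-fold stood against 19.3% of the table. In 6 of the 9 members the log2 ratio was above 0, against 50.4% of all listed genes. The median log2 ratio of the 9 members, computed on CPM + 0.5, was 0.32, against 0.0054 for all listed genes, and single members ranged from -1.49 for Klf10 to 3.55 for Klf3. Summed over the 9 genes the family's level differed little, at 1331 CPM (knockout) and 1308 CPM (control), a ratio of 1.02 (counting interval 0.995 to 1.04). Most of that sum is Klf6. Without it the other 8 members summed to 442 CPM (knockout) and 296 CPM (control), 1.49-fold higher (1.43 to 1.56). Of this smaller sum Klf2 and Klf3 gave 199 CPM (knockout) and 49.0 CPM (control), so its difference lies in these 2 genes and not in the rest together.

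**Figure D1:**
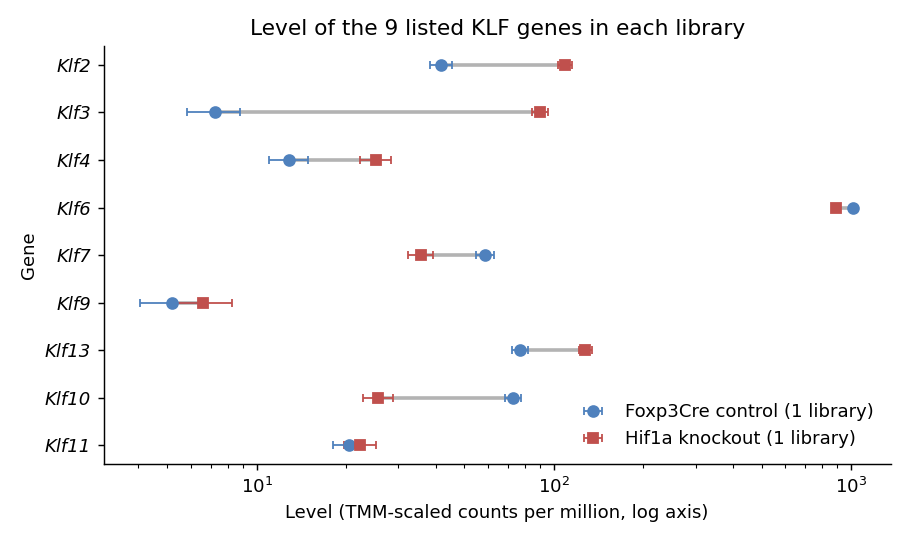
Level of each listed KLF gene in the control (circles) and the knockout library (squares), in TMM-scaled CPM on a log axis; bars are 95% Poisson counting intervals of 1 library each. Klf3 stands at 7.22 CPM in the control and 89.7 CPM in the knockout, Klf10 at 72.9 and 25.7 CPM, and Klf6 is the most abundant in both, at 1012 and 889 CPM.

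Klf2, the factor of T cell quiescence and recirculation (ENSMUSG00000055148), had 1253 knockout and 555 control counts, or 109 CPM against 41.8 CPM. It was 2.61-fold higher in the knockout, with a counting interval of 2.36 to 2.89. Of the listed genes, 6.72% had a larger ratio than Klf2. Klf3, a repressor that recruits the CtBP co-repressors (ENSMUSG00000029178), had 1031 and 96 counts, or 89.7 CPM against 7.22 CPM. It was 12.4-fold higher (10.1 to 15.5), and 87 of the 10219 genes, 0.851%, had a larger ratio. An opposite-strand transcript, Gm20033, shares 3.59% of the exon bases of Klf3 in GENCODE M21; it has no row in the table, and the strand setting of the counting is not given. The 6 listed macrophage markers, a selected part of their list, differed in the same direction, with a median log2 ratio of 5.18. So did Foxo1, which activates Klf2, at 0.79. Whether either bears on the Klf2 or Klf3 values was not tested.

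Klf4, which promotes monocyte differentiation and restrains lymphocyte proliferation (ENSMUSG00000003032), lay just inside the 2-fold limit. It had 289 and 171 counts, or 25.2 CPM in the knockout against 12.9 CPM in the control, a fold of 1.96 (1.61 to 2.38). Klf4 is abundant in monocytes. The macrophage marker Cd68, 1 of the 6 listed of 17, had 5296 and 306 counts in the same comparison. The part of such cells in the Klf4 value was not tested. Klf6, a widely expressed activator that responds to injury and cytokines (ENSMUSG00000000078), had 10215 and 13457 counts. Its level, 889 CPM after knockout against 1012 CPM, was 1.14-fold lower (1.11 to 1.17). The narrow interval reflects the depth of this gene and not the variation between animals. Klf7, known for its role in neuron development (ENSMUSG00000025959), had 410 and 779 counts, or 35.7 CPM against 58.6 CPM, which is 1.64-fold lower (1.46 to 1.86). The long non-coding RNA Gm26649 on the opposite strand covers 39.3% of the annotated exon bases of Klf7; reads from the 2 genes cannot be told apart without strand, so the Klf7 value is uncertain.

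Klf9, Klf10, Klf11 and Klf13 belong to the branch of the family that binds the Sin3 co-repressor complex. Klf10, also called TIEG1 and induced by TGF-beta, has been linked in mice to Foxp3 induction and Treg function. It (ENSMUSG00000037465) had 295 knockout and 969 control counts, or 25.7 CPM against 72.9 CPM. Klf10 was thus 2.84-fold lower (2.49 to 3.25), and 3.75% of the listed genes had a smaller ratio. Its closest relative Klf11 (ENSMUSG00000020653), another TGF-beta-inducible repressor, had 256 and 272 counts, or 22.3 CPM against 20.5 CPM. The fold of Klf11, 1.09, had a counting interval of 0.914 to 1.30 that includes no difference, and its log2 ratio of 0.12 became -0.045 with scaling to the pan T cell markers. Klf13, an activator of the chemokine gene CCL5 in human T cells (ENSMUSG00000052040), had 1466 and 1020 counts, or 128 CPM against 76.7 CPM, a 1.66-fold higher level (1.53 to 1.80). Klf9, a glucocorticoid-induced repressor (ENSMUSG00000033863), was the least counted member, with 76 and 69 counts. Its levels of 6.61 CPM (knockout) and 5.19 CPM (control) gave a fold of 1.27 (0.908 to 1.79), so a difference was not detectable at this depth. The counting interval excluded no difference for 7 of the 9 members, against 74.1% of all listed genes, and included it for Klf9 and Klf11, against 25.9%.

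**Figure D2:**
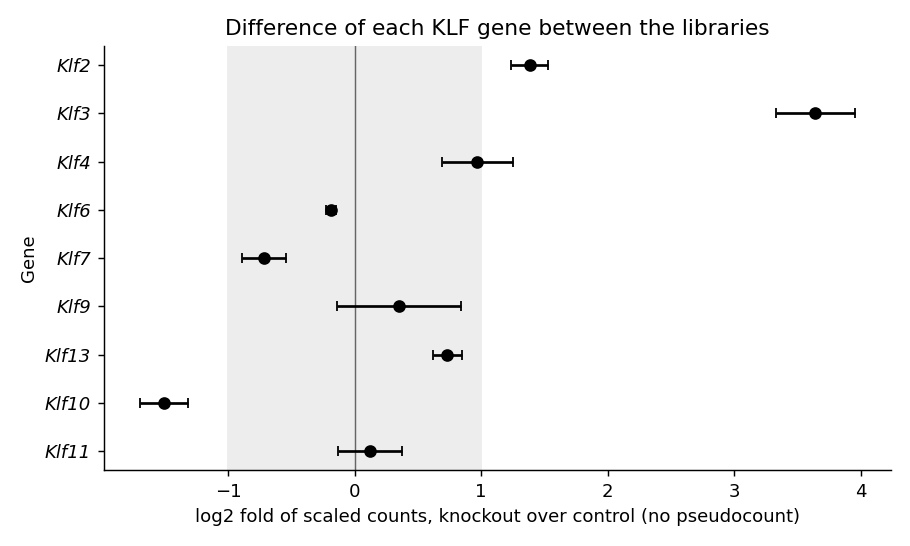
The log2 fold of scaled counts without a pseudocount, knockout over control, for each listed KLF gene; bars are 95% exact binomial counting intervals and the grey band marks less than 2-fold. Klf3 and Klf2 lie to the right of the band with folds of 12.4 and 2.61, Klf10 lies to the left, and the bars of Klf9 and Klf11 cross 0.

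The remaining genes of the wider family were compared in the same way. Of 7 further KLF genes, Klf8 and Klf16 were listed. Klf8, a repressor of the same branch as Klf3 and Klf12, had 76 and 129 counts and was 1.47-fold lower (1.10 to 1.97). Klf16 had 57 and 48 counts, a fold of 1.37 (0.919 to 2.06). Its control count is below the lowest mean of 50.5, so Klf16 is listed only through its knockout count. Klf1, Klf5, Klf14, Klf15 and Klf17 have no row. Of the 9 related Sp factors, which bind the same GC boxes, 4 were listed, and all 4 were within 2-fold. Only 19.3% of all listed genes were past 2-fold in either direction, so most genes of the table were within it too. Sp1 had 118 CPM in the knockout against 105 CPM in the control, Sp3 had 161 CPM against 166 CPM, Sp4 was 1.49-fold higher (1.32 to 1.67) and Sp2 was 1.40-fold lower (1.15 to 1.71).

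Levels of different genes were compared only per length, as CPM per kb of annotated exon (GENCODE M21). In the control library Klf6 was the highest at 231 CPM per kb, followed by Klf2 at 22.6, Klf10 at 17.4 and Klf13 at 10.2 CPM per kb. Klf7, Klf11, Klf4 and Klf9 followed, between 7.21 and 1.08 CPM per kb, and Klf3 was the lowest at 0.642 CPM per kb. In that order the counting intervals of Klf11 and Klf4 overlapped, and those of the other neighbours did not. In the knockout library Klf6 was again the highest at 202 CPM per kb and Klf2 was next at 59.0 CPM per kb. Klf13 had 16.9, Klf4 8.25, Klf3 7.98 and Klf10 6.14 CPM per kb, and Klf11, Klf7 and Klf9 lay between 5.13 and 1.37 CPM per kb. Klf4 and Klf3, Klf10 and Klf11, and Klf11 and Klf7 had overlapping intervals there. Klf3 thus stood in place 9 of 9 in the control and place 5 in the knockout, while Klf10 stood in places 3 and 6. When the longest annotated transcript gave the length, Klf3 stood in places 8 and 4, and Klf10 moved ahead of Klf2 in the control, at 23.9 against 22.6 CPM per kb.

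The make-up of the family's transcripts differed between the libraries. Klf6 held 77.4% of the counts of the 9 members in the control (counting interval 76.8% to 78.0%) and 66.8% in the knockout (66.1% to 67.6%). Klf2 and Klf3 together held 3.74% (3.47% to 4.04%) in the control and 14.9% (14.4% to 15.5%) in the knockout. Scaled by exon length, the share of Klf2 and Klf3 was 7.78% in the control and 21.5% in the knockout, and Klf2 alone made up 7.57% and 18.9% of the summed CPM per kb. Klf10 had 5.84% of that sum in the control and 1.97% in the knockout.

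**Figure D3:**
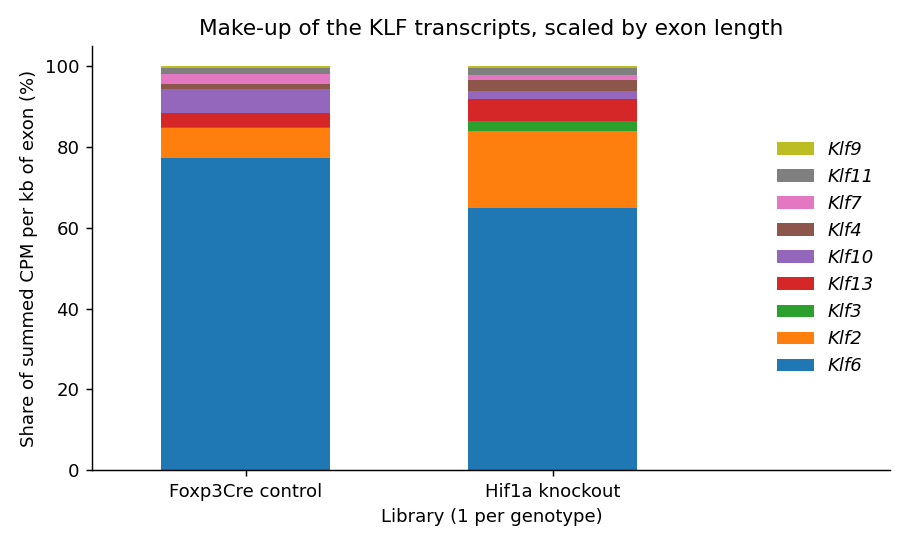
Share of each listed KLF gene in the summed CPM per kb of exon of the 9 members, in percent, for the 1 control and the 1 knockout library. Klf6 takes 77.2% in the control and 65.0% in the knockout, and Klf2 takes 7.57% and 18.9%.

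Klf2 and Klf3 were then set against the other members. Their mean log2 ratio was 2.46, the median of the other 7 listed members was 0.12, and the difference was 2.34. It ran from 1.52 against Klf4, the highest of the 7, to 3.95 against Klf10, the lowest. That range is a spread between genes and gives no error of the libraries. Since Klf2 and Klf3 had the largest ratios of the 9 listed members, a difference above 0 follows from that order. The ratio of 2 genes within a library does not depend on how the libraries are scaled. Klf2 was counted 0.0412 times as often as Klf6 in the control and 0.123 times as often in the knockout, a 2.97-fold difference (2.68 to 3.30). Klf3 was counted 0.00713 times as often as Klf6 in the control and 0.101 times in the knockout, a 14.1-fold difference (11.4 to 17.7). Against Klf10, which differed the other way, the changes were 7.42-fold for Klf2 (6.27 to 8.77) and 35.3-fold for Klf3 (27.4 to 45.6). Against all 7 other listed members the ratio was higher in the knockout with an interval above 1, for Klf2 from 1.34-fold against Klf4 to 7.42-fold and for Klf3 from 6.35-fold against Klf4 to 35.3-fold. Ratios above 1 follow from the order of the members, so only their sizes and counting intervals are added here. Klf2 and Klf3 also differed from each other: there were 5.78 Klf2 counts per Klf3 count in the control and 1.22 in the knockout.

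**Figure D4:**
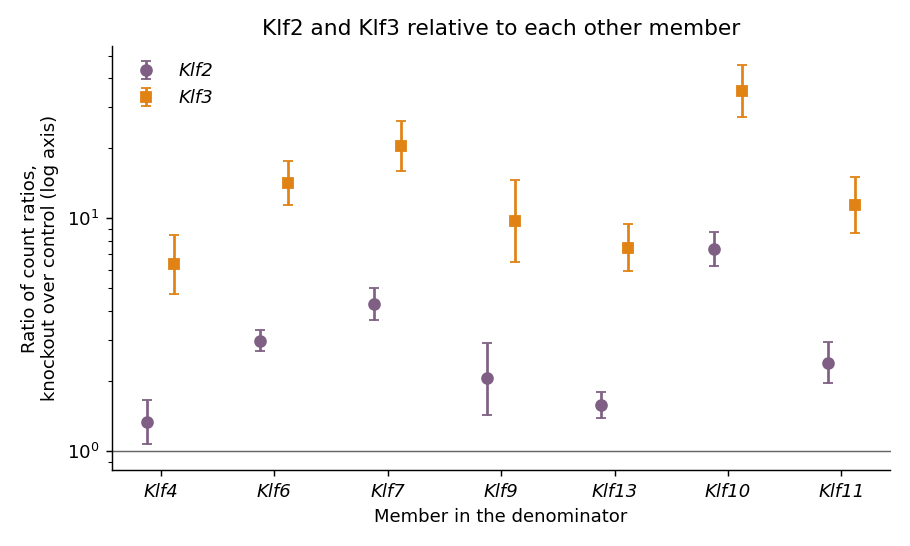
Ratio of the count ratio in the knockout to that in the control, for Klf2 (circles) and Klf3 (squares) over each of the 7 other listed members, on a log axis; bars are 95% conditional counting intervals and the line marks no difference. All 14 points lie above 1, which follows from Klf2 and Klf3 having the largest log2 ratios of the listed members. Klf3 lies between 6.35 and 35.3 and Klf2 between 1.34 and 7.42.

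Genes that act upstream of Klf2 were mostly somewhat higher in the knockout library. These are the FOXO factors, the ERK5 kinase cascade, MEF2 factors, the ubiquitin ligases that degrade KLF2 protein, and AKT kinases, which set FOXO activity. Of 16 genes 14 were listed, and 2 passed 2-fold towards the knockout and 0 towards the control, near the 10.9% and 8.41% of all listed genes. Their median log2 ratio was 0.53, against 0.0054 for all listed genes, and 13 of the 14 lay above 0, or 11 with scaling to the pan T cell markers, against 50.4% of all listed genes. Mef2d was 2.17-fold higher (1.97 to 2.39), at 105 CPM against 48.1 CPM, and Foxo4 was 2.08-fold higher (1.61 to 2.71), from 169 and 94 counts. Foxo1, the direct activator of Klf2 in T cells and the most counted of the list, was 1.73-fold higher (1.61 to 1.85), at 170 CPM against 98.3 CPM. Akt1, a kinase that keeps FOXO factors out of the nucleus, was the gene below 0 without that scaling, 1.21-fold lower (1.06 to 1.37). The number past 2-fold was 0 with that scaling, under which the median of all genes shifted by -0.17.

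Trafficking genes went both ways. Of 26 genes 22 were listed, of which 7 passed 2-fold towards the knockout and 5 towards the control, against 10.9% and 8.41% of all listed genes; the median log2 ratio was 0.35. S1pr1, the sphingosine phosphate receptor for exit from tissues and a direct KLF2 target, had 198 CPM against 42.0 CPM, 4.71-fold higher (4.29 to 5.17). Cxcr3, a receptor of inflamed tissue, was 4.37-fold higher in the knockout, from 2087 and 553 counts, and the integrin chain gene Itgb1 was 2.90-fold higher (2.72 to 3.09). In the other direction Cxcr6 was 7.80-fold lower (7.28 to 8.37) and Ccr8, a receptor of tissue Tregs, was 6.21-fold lower (5.42 to 7.15). Cd69, whose protein removes S1PR1 from the cell surface and which had the most counts of the list in the control, had 642 CPM against 1907 CPM, 2.97-fold lower (2.89 to 3.05). Klf2 and S1pr1 were thus higher in the library in which Cd69 was lower. Macrophage markers summed to 3657 CPM against 245 CPM in the same libraries, and the part of other cells in these values was not tested.

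Quiescence genes other than Klf2 were higher or within 2-fold. All 20 were listed; 5 passed 2-fold towards the knockout and 0 towards the control, against 10.9% and 8.41% of all listed genes. The median log2 ratio was 0.38, against 0.0054 for all listed genes. The naive T cell factors Tcf7, Bach2 and Lef1 were 31.9-fold (25.9 to 39.7), 18.0-fold (13.6 to 24.3) and 4.01-fold (3.58 to 4.49) higher. Rbl2, a pocket protein of resting cells, was 1.37-fold lower (1.27 to 1.47), and Txnip and Il7r were 1.27-fold and 1.26-fold lower. Btg1, an antiproliferative gene and the most counted of the list, stood at 1285 CPM against 1246 CPM. Foxo1 is in both this list and the list of upstream genes.

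Co-repressors that KLF proteins bind showed no common direction. Of 12 genes 11 were listed, with 1 past 2-fold in each direction, near the 10.9% and 8.41% of all listed genes, and a median log2 ratio of 0.0039, or -0.16 with scaling to the pan T cell markers. Ctbp2, a CtBP partner of Klf3, was 3.41-fold lower (2.53 to 4.66), from 56 and 221 counts, and the related Ctbp1 was 1.27-fold lower (1.12 to 1.44). Wiz, a zinc finger protein of the CtBP complex, was 2.01-fold lower (1.58 to 2.57) from the counts and had a log2 ratio of -0.97 on CPM + 0.5. Sap30, a subunit of the Sin3 complex, was 4.94-fold higher (3.30 to 7.61), from 128 and 30 counts. Its control count is below the lowest mean of 50.5, so Sap30 is listed only through its knockout count. The 1 co-repressor past 2-fold towards the knockout is this gene, so that count depends on which genes were listed. Sin3a, the scaffold of that complex, was 1.24-fold higher (1.12 to 1.37), and Hdac3 was 1.14-fold higher (1.02 to 1.29).

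The TGF-beta pathway induces Klf10 and Klf11. Of its 19 genes 13 were listed, 1 passed 2-fold in each direction, near the 10.9% and 8.41% of all listed genes, and the median log2 ratio was 0.60. Lrrc32, which encodes the receptor GARP that holds latent TGF-beta on Tregs, was 3.05-fold higher (2.85 to 3.28). The feedback inhibitor gene Smad7 was 1.85-fold higher (1.55 to 2.21) and the co-repressor gene Tgif1 1.65-fold higher (1.52 to 1.80). Foxp3 was 2.24-fold lower, Skil, a repressor of SMAD signalling and the most counted of the list, was 1.41-fold lower (1.34 to 1.47), and the signal transducer gene Smad3 was 1.26-fold lower (1.12 to 1.43). Glucocorticoid response genes, the group that Klf9 belongs to, had 8 of 9 other members listed, 2 past 2-fold towards the knockout and 1 towards the control, against 10.9% and 8.41% of all listed genes, and a median log2 ratio of -0.29. Per1, a clock gene, and Sgk1, a kinase gene, were 2.65-fold (2.17 to 3.25) and 2.22-fold (2.02 to 2.45) higher. The stress gene Ddit4 was 2.82-fold lower (1.91 to 4.24) from 35 and 114 counts. Its knockout count is below the lowest mean of 50.5, so Ddit4 is listed only through its control count. The 1 gene of this list past 2-fold towards the control is Ddit4, so that count depends on which genes were listed. The receptor gene Nr3c1 was 1.72-fold lower (1.66 to 1.79) and Fkbp5 was 1.66-fold lower (1.36 to 2.03).

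**Figure D5:**
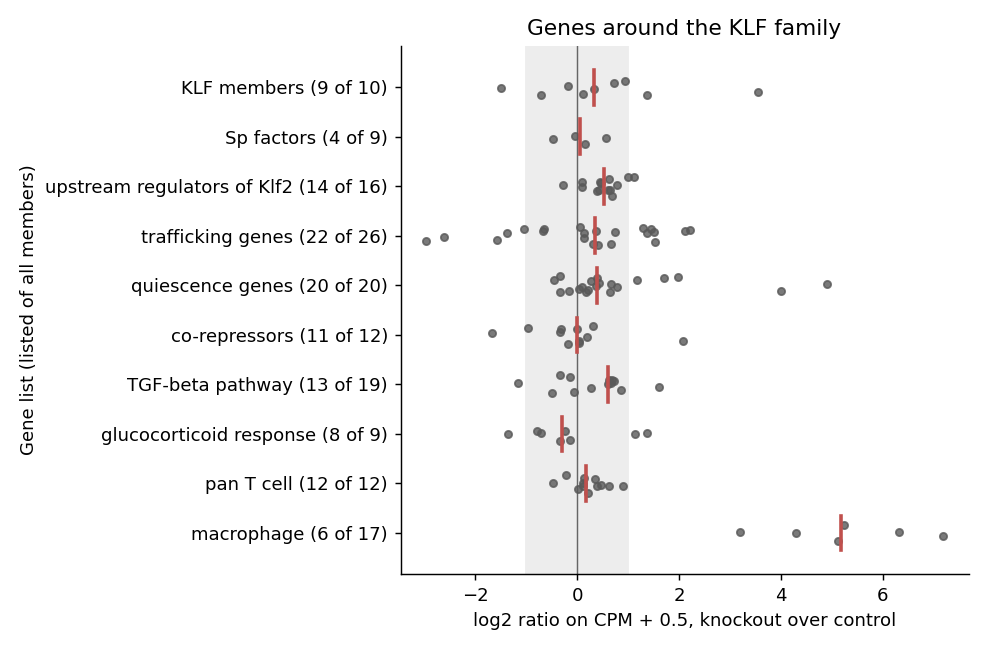
Log2 ratio on CPM + 0.5, knockout over control, of every listed member of the KLF family, the Sp factors, 6 related gene lists and 2 marker lists; each point is a gene, red lines are medians and the grey band marks less than 2-fold. Medians of the related lists lie between -0.29 and 0.60, and that of the 6 listed macrophage markers is 5.18.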

How the data were processed

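Tregs of 2 genotypes were profiled with 1 library each, and samples were grouped by the genotype label. The tools named are HTSeq 0.6.1, edgeR, TopHat2 2.0.12 and Bowtie2 2.2.3, and the genome is mm8, per the submitters' processing notes. The annotation, the strand setting and the handling of shared reads were not given in the sources used here. Raw counts per gene were deposited, with their mean and signed ratio as scores. The authors' log2 fold change, log2 CPM and p-value columns carry edgeR names, per the file headers; the p-values come from 1 library per genotype and are not used.

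Counts were scaled by TMM (edgeR 4.0.16, R 4.3.3) to CPM. Log2 ratios are knockout over control on CPM + 0.5; printed folds are ratios of scaled counts with exact 95% binomial intervals (scipy 1.17.1), which cover counting error only. PCR copies are not independent molecules. With no replicates no test was possible, so genes are called by size, at least 2-fold. The calculation was also run on simulated counts that held counting noise only, which cannot speak to variation between animals. Exon lengths come from GENCODE M21; because its build differs from the one named, no coordinates of counted genes are given. Promoter windows come from RefSeq (GRCm38.p6). Named genes are all KLF members, other listed Klf and Sp genes, the 3 members farthest from 0 in each direction of every related list, and the most counted member where it touches a KLF result. Of the lists' genes, 2 are not reported here and are left out of every list count and median. Members and lists were chosen with earlier results of these data known. Other scalings, pseudocounts, size limits and a level filter were tried. Other marker lists (dendritic, B, natural killer and innate lymphoid, stromal, adipocyte, endothelial and neutrophil cells) had 7, 3, 4, 5, 1, 2 and 1 genes listed and median log2 ratios of 1.38, -0.27, 2.72, 1.70, 0.65, 2.12 and -0.35. Of the stromal list Dpp4 (16.5-fold), Thy1 (4.00-fold) and Dcn (3.47-fold) were higher in the knockout, and Ly6a and Mfap5 were lower. Mfap5, with 47 knockout counts, is listed only through its control count. Of the natural killer and innate lymphoid list Tyrobp, Arg1 and Klrk1 were higher, and Areg was 6.38-fold lower. Such genes are not confined to the named cells, so these medians do not show which cells were present.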

Additional observations from a re-analysis of the deposited data

How the results depend on the processing

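The depth limits the weakly counted members: Klf9, with 76 and 69 counts, could not be placed on either side of no difference. The difference between Klf2 and Klf3 and the other members was 2.34 on the log2 scale. It lay between 2.02 and 2.39 under every scaling, pseudocount and source of the ratio tried. Library scaling nearly cancels in such a difference, so the scalings could hardly move it. The value from the authors' log2 fold change, 2.39, was that of CPM + 0.01. For the calls, 2 members stayed higher and 1 lower under each of these settings. The same held under the 5 CPM filter and when the counting interval had to lie past 1.5-fold. Of 54 alternative values of single members' log2 ratios, 49 stayed inside the counting interval, and 1, that of Klf11, changed sign. The 5 others included Klf3 at 2.95 on CPM + 5.

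At 1.5-fold, 4 KLF members were higher and 2 lower, and at 4-fold 1 was higher and 0 lower; for all genes the counts were 2067 and 1886, and 350 and 161. Upstream genes at least 2-fold higher, 2 of them, became 0 on pan T cell markers, 1 on CPM + 5, 7 at 1.5-fold and 0 at 4-fold. Trafficking genes became 2 higher and 2 lower at 4-fold. Quiescence genes became 8 higher at 1.5-fold and 2 at 4-fold. Lower co-repressors became 2 on pan T cell markers, on CPM + 0.01, with the authors' log2 fold change and at 1.5-fold, and 0 at 4-fold; the gene added, Wiz, lies at the 2-fold limit. The co-repressor median of 0.0039 became -0.0017 with DESeq2 size factors and -0.16 on pan T cell markers. TGF-beta genes became 7 higher at 1.5-fold and 0 higher and 0 lower at 4-fold. Glucocorticoid response genes became 1 higher on pan T cell markers, 0 lower on CPM + 5, 3 lower at 1.5-fold and 0 higher and 0 lower at 4-fold. No paired analysis was possible because each genotype has 1 library.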
